A study of Ovis aries with 6 samples.

Results

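ACLY and SCD, 2 enzymes of fatty acid synthesis, were followed in the dorsal skin of newborn Hu sheep lambs on one-colour expression arrays. The members were the probes, other than controls, whose RefSeq accession on the array names either gene. This gave 2 of 15008 probes and 2 of 500 named genes, A_70_P039356 for ACLY (NM_001038622) and A_70_P039361 for SCD (NM_001009254), each printed as 1 spot per array. Another 14241 of the probes carry no accession that could be named here, and some may also target these genes. The files name no genome build, so no coordinates are given.

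The study compared 3 lambs with a large wave coat and 3 with a small wave coat, all Hu lambs sampled at 2 days of age, 1 lamb per array. The series' design text has all lambs share a sire and each large wave lamb share a dam with a small wave lamb. Lambs are numbered here by their replicate number, and lambs with the same number are called a pair. The labels do not tie this number to the shared dam, so the lambs of a pair need not share one. The tissue was dorsal skin as a whole, so the RNA came from a mixture of cell types. The 6 arrays lay on 1 slide with 1 scan. The 75th percentile of an array's signal, a measure of its brightness, ran from 94.7 to 391.5, with 51.4 to 70.7% of the spots on an array detected well above background. The array of the large wave lamb was brighter than that of its small wave partner in 3 of 3 pairs. Of the 9 hair follicle markers that could be named, 9 were well above background on all arrays.

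ATP citrate lyase, the product of ACLY, splits citrate exported from mitochondria and so supplies the cytosol with acetyl-CoA, the building block of fatty acids and sterols. Acetyl-CoA carboxylase and fatty acid synthase turn it into saturated chains, using NADPH. Stearoyl-CoA desaturase, the product of SCD, then places a double bond in these chains and makes oleate and palmitoleate. In skin the sebaceous glands beside the hair follicles make sebum, in sheep the wool wax, from such lipids, and mice without the skin desaturase are known for shrunken sebaceous glands and hair loss.

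ACLY was clearly detected in all 6 lambs. The processed signal, the spot intensity after background subtraction, was 726.8, 359.3 and 449.2 in large wave lambs 1, 2 and 3 and 574.3, 45.4 and 137.2 in small wave lambs 1, 2 and 3. Every spot was well above background, and none was saturated or marked as an outlier. The lowest, in small wave lamb 2, still had a median pixel signal 3.36 times its local background, against 5.39 to 27.5 times on the other arrays. Probes differ in how well they bind, so a signal is not an amount of transcript. As a description, the ACLY signal lay at the 80.4th to 83.3rd percentile of all probes on 5 arrays and at the 59.5th in small wave lamb 2.

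To compare lambs, the log2 signal was taken minus the log2 75th percentile of its array, so that 0 means a signal equal to that percentile. On this scale ACLY was 0.89, 0.81 and 0.85 in large wave lambs 1, 2 and 3 and 1.01, -1.75 and 0.53 in small wave lambs 1, 2 and 3. The large wave values were almost equal, the highest value of all belonged to a small wave lamb, and the groups overlapped. Small wave lamb 2 stood far below the other 5 lambs. The group means were 0.85 ± 0.04 and -0.07 ± 1.47 (SD, n = 3 each), and the difference, large wave minus small wave, was 0.92 ± 0.67 (SE, 95% confidence interval -0.63 to 2.46), a 1.89-fold ratio. It did not pass the test across all probes (limma with Benjamini-Hochberg adjustment, adjusted p = 0.777). Under this test 0 of 10041 probes passed, 0%, and 14.5% of them had a difference at least as large in size. In skin as a whole, fewer cells of a type and less RNA per cell cannot be told apart.

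That single lamb carried most of the ACLY difference. Without small wave lamb 2 it was 0.08 (95% confidence interval -0.72 to 0.88), and in the pairs 1 to 3 it was -0.12, 2.56 and 0.32. Within row 1 of the slide (large wave lambs 2 and 3, small wave lamb 1) the difference was -0.18, and within row 2 it was 1.50. Before scaling the difference was 1.68, beside a median of 0.74 over all probes. With limma array weights it was 2.06 (95% confidence interval 0.76 to 3.35, adjusted p = 0.175). As the large wave values were almost equal, a difference of that size puts most of the small wave weight on small wave lamb 2. In that fit 2171 of 10041 probes had an unadjusted limma p under 0.05, against 383 in the reported fit. On the array of small wave lamb 2, ACLY lay at -2.58 relative to its median over the 6 arrays, and 99 of 9220 probes, 1.07%, were as low relative to theirs. The 17 detected spots nearest to ACLY on that array had a median of -0.50 and a lowest value of -1.91 by the same measure, against medians of -0.11 to 0.14 on the other arrays. The part of the spot's surroundings in the low value was not tested.

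SCD was also detected in every lamb. Its processed signal was 166.2, 158.9 and 75.7 in large wave lambs 1, 2 and 3 and 163.6, 199.7 and 107.5 in small wave lambs 1, 2 and 3. Of these, 4 lie between 158.9 and 199.7, and the lowest came from large wave lamb 3. The median pixel signal was 3.03 to 7.15 times the local background, every spot was well above background, and none was saturated or marked. By rank, SCD lay at the 62.7th, 72.9th and 60.2nd percentile of all probes in large wave lambs 1, 2 and 3 and at the 68.2nd, 77.8th and 77.8th in small wave lambs 1, 2 and 3.

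After scaling, SCD was -1.24, -0.37 and -1.72 in large wave lambs 1, 2 and 3 and -0.80, 0.39 and 0.18 in small wave lambs 1, 2 and 3. The highest values came from small wave lambs 2 and 3, the lowest from large wave lambs 3 and 1, and the groups overlapped because large wave lamb 2 lay above small wave lamb 1. The means were -1.11 ± 0.69 and -0.07 ± 0.64 (SD, n = 3 each). The difference was -1.03 ± 0.48 (SE, 95% confidence interval -2.15 to 0.09), a 2.04-fold ratio, which did not pass (limma adjusted p = 0.777). Its unadjusted p in limma was 0.067, and 10.7% of all probes tested had a difference at least as large in size. The large wave lamb had the lower value in 3 of 3 pairs, by -0.44, -0.76 and -1.90 in pairs 1 to 3. Before scaling, pairs 1 to 3 gave 0.02, -0.33 and -0.51. The share of all probes with the same sign in every pair was not counted.

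The SCD difference was -1.05 after quantile normalization and -1.05 in the authors' deposited table of log2 values, near the reported -1.03. Before scaling, the mean log2 signal was 6.98 ± 0.64 for large wave lambs and 7.25 ± 0.46 for small wave lambs (SD, n = 3 each), a difference of -0.27, where the median difference over all probes was 0.74. The scaling subtracts 1 value per array from every probe, so by construction it hardly changes the place of SCD relative to all probes. The likeness of the 2 results is therefore no check of the scaling. After normexp background correction and quantile normalization the difference was -0.64. In that setting the median size of the difference over all probes was 0.16, against 0.40 in the reported fit. With array brightness as a covariate the SCD difference was -0.54, and within row 1 and row 2 of the slide it was -0.24 and -1.52. Brightness and wave pattern moved together in the pairs, and the part of brightness in the SCD difference was not tested beyond that covariate. Of the 13 adipocyte markers, 2 could be named, PLIN1 and LPL, both dim and neither well above background on all 6 arrays. Their summed level, on the log2 scaled axis, ran from -3.16 to -3.03 in large wave and from -2.95 to -1.74 in small wave lambs. These sums did not overlap, as in 9.76% of those 9220 probes that had 6 values, a share of single probes and not of sums. On its own each summed probe overlapped. PLIN1 read -3.47 in large wave lamb 2 and -3.51 in small wave lamb 1, and LPL read -3.85 in large wave lamb 3 and -4.59 in small wave lamb 1. The other PLIN1 probe differed by 0.04. Adipocytes also use SCD, and the part of fat cells in its difference was not tested.

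**Figure D1:**
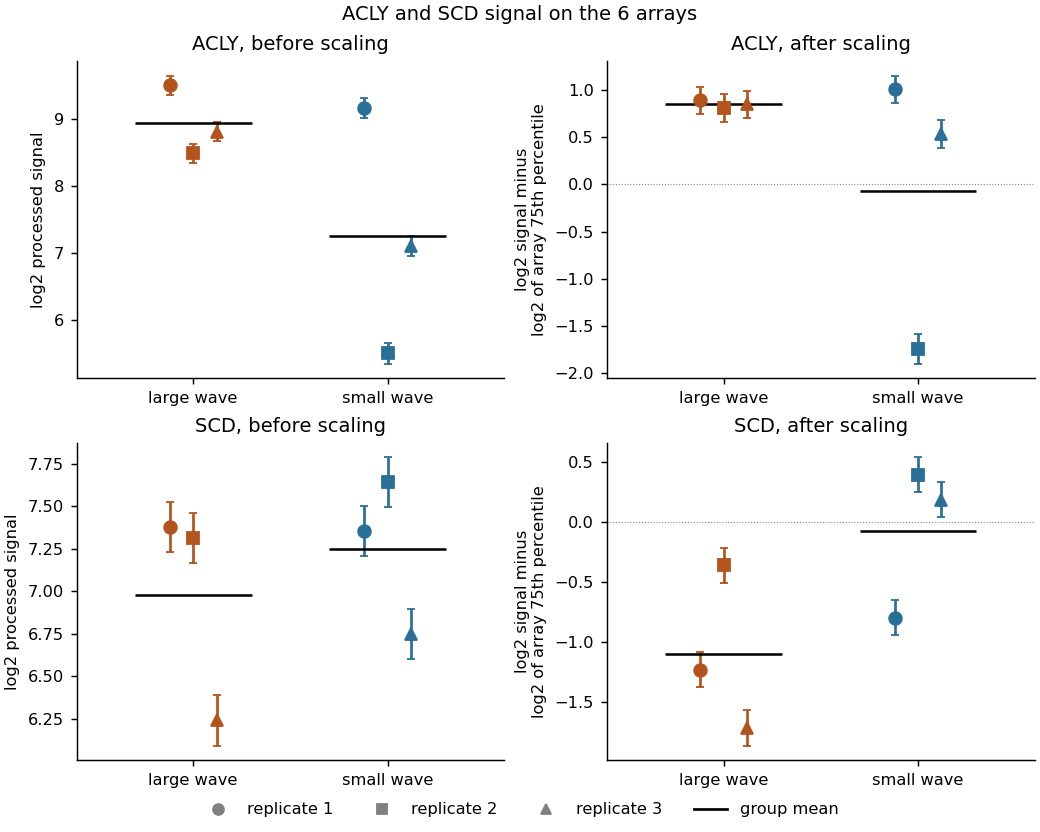
Log2 processed signal before scaling (left) and after subtraction of the log2 75th percentile of the array (right) for ACLY (top) and SCD (bottom), by wave pattern; each symbol is 1 lamb, vertical bars are the error that Feature Extraction gives for the spot, and horizontal bars are group means of 3. After scaling the 3 large wave values of ACLY lie between 0.81 and 0.89 and small wave lamb 2 at -1.75, while for SCD the groups overlap from -0.80 to -0.37.

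The ratio of the 2 signals within an array does not depend on the 75th percentile scaling. It can change under quantile normalization or normexp correction, for which it was not computed. ACLY minus SCD on the log2 scale was 2.13, 1.18 and 2.57 in large wave lambs 1, 2 and 3 and 1.81, -2.14 and 0.35 in small wave lambs 1, 2 and 3. Small wave lamb 2 was lowest, and the groups overlapped because large wave lamb 2 lay below small wave lamb 1. The group means were 1.96 ± 0.71 and 0.01 ± 2.00 (SD, n = 3 each), a difference of 1.95 (exact permutation p = 0.20, two-sided, where 3 against 3 arrays allow no p below 0.10). The large wave lamb had the higher ratio in 3 of 3 pairs, by 0.32, 3.32 and 2.22, and how often other ratios do so was not counted. A ratio does not tell which of the 2 genes differs. Across the 6 lambs the scaled values of the 2 genes ran in opposite directions, with a Pearson r of -0.66, and of -0.66 over 5 lambs without small wave lamb 2; both values of a lamb share its array, its brightness and the scaling. With array brightness, as the log2 75th percentile over the 6 arrays, the unscaled log2 signal had an r of 0.78 for ACLY and of 0.16 for SCD.

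**Figure D2:**
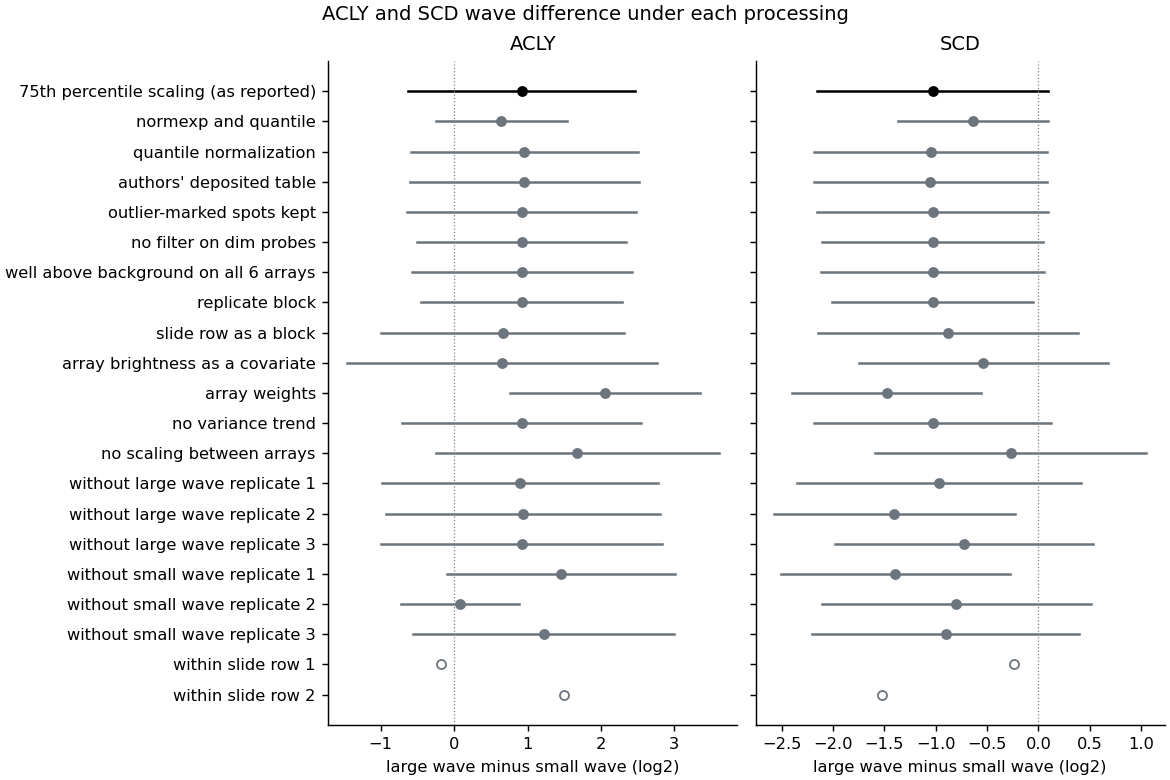
Large wave minus small wave difference (log2, horizontal axis) of ACLY and SCD under the reported processing (black) and each alternative (grey), with 95% confidence intervals from limma; open points, within a row of the slide, have no interval. ACLY falls to 0.08 without small wave lamb 2, and SCD stays below 0 in each setting shown.

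ACLY and SCD had unlike spreads within the groups, described here without a test. For ACLY the SD over the 3 large wave lambs was 0.04, lower than the error of about 0.14 on the log2 scale that Feature Extraction gives for each of these spots. Only 1.12% of the 9220 probes with 6 values had an SD as low in this group. Its SD over the 3 small wave lambs, 1.47, lay at the 92.8th percentile of the same probes. For SCD the SD was 0.69 in large wave lambs, at the 79.9th percentile, and 0.64 in small wave lambs, at the 55.0th.

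Over all 6 lambs the SD was 1.06 for ACLY and 0.82 for SCD, against a median of 0.57 over the 9220 probes. Without small wave lamb 2 the SD of ACLY was 0.18. Among the 922 probes of like brightness these SDs stood at the 92.3rd percentile for ACLY and at the 80.2nd for SCD. Before scaling the order was the other way for SCD: its SD of 0.52 lay at the 17.6th percentile, as the median probe had 0.91, while ACLY with 1.52 stayed high at the 87.1st. The 50 probes printed 5 times per array give the spread between spots within an array, a median SD of 0.16 to 0.37 on the different arrays. It leaves out technical variation between arrays, which was not measured. The range of ACLY over the 6 lambs was 2.76 on the log2 scale (6.77-fold) and that of SCD 2.11 (4.32-fold).

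**Figure D3:**
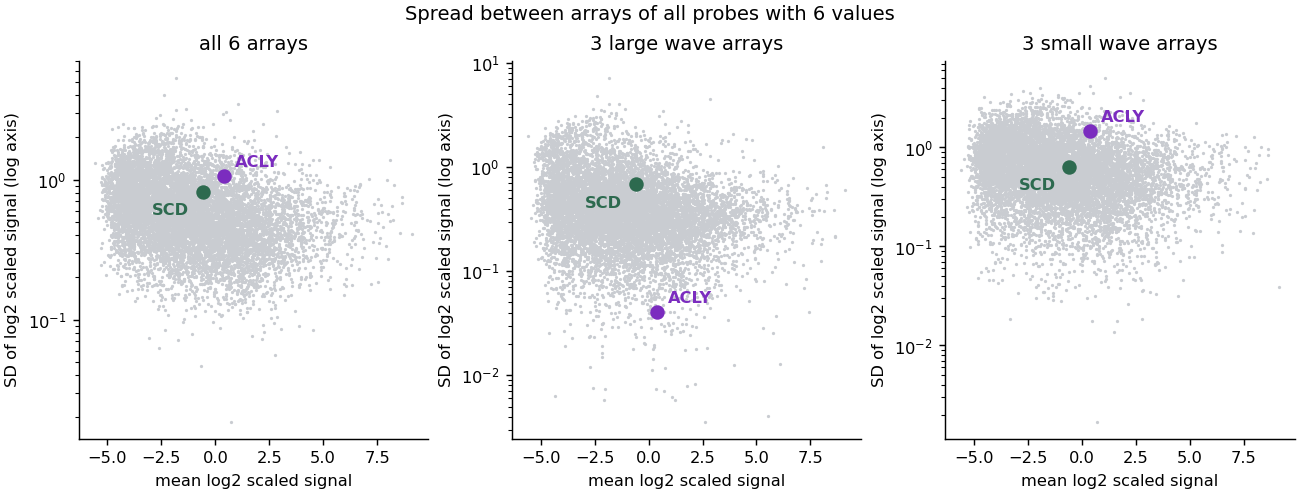
SD of the log2 scaled signal (log axis) against its mean for the 9220 probes with a value on every array (grey), over all 6 arrays, the 3 large wave and the 3 small wave arrays, with ACLY and SCD marked. ACLY sits near the bottom in large wave lambs, with an SD of 0.04, and near the top in small wave lambs, with 1.47.

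Genes of lipid synthesis were read from lists of 73 genes, written with earlier results of these data known. Of these, 12 could be named on the array and 10, with ACLY and SCD among them, were tested. None passed in limma in either direction, with 0% of all probes passing. Of the 10, 2 (ACLY and ME1) read higher in large wave lambs and 8, SCD among them, read lower. The median difference of the 10, both members included, was -0.35, against -0.02 over all probes tested, of which 51.3% were lower. The split was 3 higher and 7 lower after quantile normalization, and 4 and 6 after normexp correction with quantile normalization. Without scaling it was 6 and 4, where all probes together shift to a median of 0.74. At an unadjusted p under 0.05 there was 1 of 10, PGD, and 3.81% of all probes.

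In the step that follows ACLY, both probes of ACACA, which encodes acetyl-CoA carboxylase, were dim. One was well above background on no array and the other on 2, large wave lamb 1 and small wave lamb 1, the brightest arrays of each group. Among the suppliers of NADPH, the malic enzyme gene ME1 differed by 0.57 ± 0.66 (SE, limma adjusted p = 0.809), but by -0.57 with array brightness as a covariate and by -0.071 without small wave lamb 3. PGD, of the pentose phosphate pathway, differed by -1.15 ± 0.42 (limma adjusted p = 0.777) with 2 large wave arrays, and by -0.51 at its second probe. The PGD difference was -0.75 after quantile normalization and -0.60 after normexp correction with quantile normalization. It was -0.56 in the fit that adds the brightness of each array. When no scaling was applied it was -0.19, beside a median of 0.74 over all probes. The unadjusted p of PGD in limma, 0.030, was 0.060 after normexp correction with quantile normalization and 0.20 with the brightness covariate. Without scaling it was 0.69, for a test against 0 and not against that median. It ranged from 0.0068 to 0.12 when 1 array was left out. IDH1, the cytosolic isocitrate dehydrogenase, differed by -0.56 ± 0.38 with 2 small wave arrays, by -0.33 after quantile normalization and by 0.062 after normexp correction with quantile normalization.

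A second desaturase gene, SCD5, is on the array with 2 probes. Its brighter probe read -1.13, -0.28 and 0.38 in large wave lambs 1, 2 and 3 and -0.73, -0.01 and 0.18 in small wave lambs 1, 2 and 3. These overlap throughout, and large wave lamb 3, where SCD was lowest, had the highest value. The difference was -0.16 ± 0.47 (SE, limma adjusted p = 0.942), 0.40 with the brightness covariate, and its second probe, well above background on 3 arrays, gave 0.21. Whether SCD and SCD5 differ in their response to wave pattern was not tested.

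Further downstream, DGAT1, which makes triglycerides, differed by -0.31 ± 0.31 and by 0.20 at its second probe. SQLE, a sterol synthesis enzyme, was bright and even at its brighter probe, with -0.23 ± 0.26, but 0.10 after quantile normalization and 0.11 in the authors' deposited table. Its second probe gave -0.05 and was less even, with an SD of 0.43 in each group, against 0.12 in large wave and 0.11 in small wave lambs at the brighter probe. Among regulators, PPARG, a nuclear receptor of fat and sebaceous cells, differed by -0.39 ± 0.34. PRKAA2, a catalytic subunit of AMP-activated kinase, gave -1.22 ± 0.78 and at its second probe 1.02, with 4 and 3 arrays well above background. The first value was -0.24 after normexp correction with quantile normalization and -0.78 with array brightness as a covariate. Without scaling it was -0.46, beside a median of 0.74 over all probes. It was -0.57 without large wave lamb 2, -0.74 without small wave lamb 3 and -1.91 without large wave lamb 3. The limma adjusted p of these 4 genes lay between 0.777 and 0.807.

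**Figure D4:**
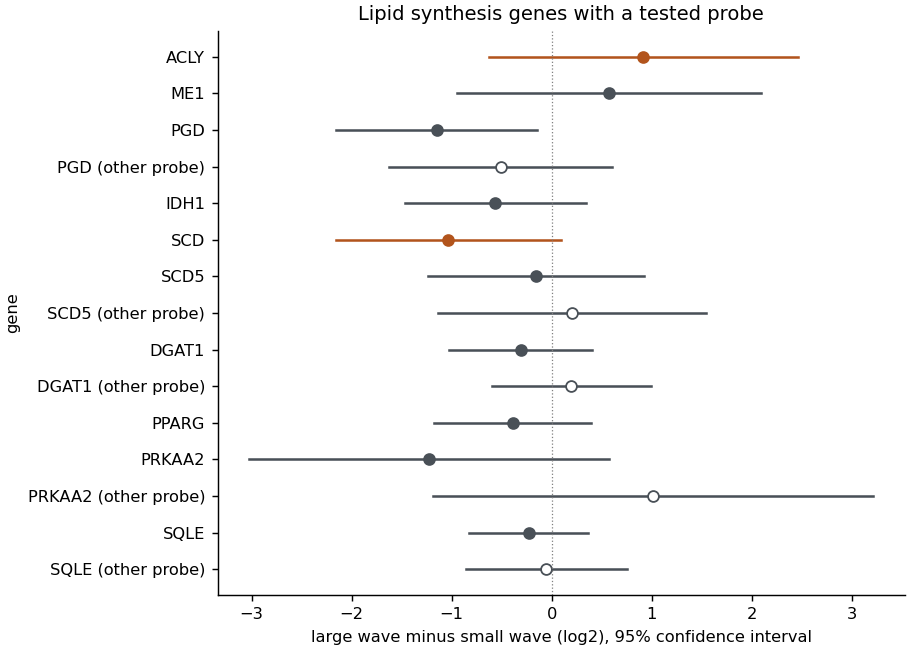
Large wave minus small wave difference (log2, horizontal axis) with its 95% confidence interval from limma for each tested probe of the lipid synthesis genes; filled points are the brightest probe of a gene, open points its other probe, and ACLY and SCD are in orange. The intervals of ACLY and SCD both include 0, and the probes of DGAT1, SCD5 and PRKAA2 differ in sign.

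Of 14 sebaceous gland markers, 4 could be named. PLIN2, which coats lipid droplets, FABP5, a fatty acid binding protein shared with epidermis, and PPARG were well above background on all 6 arrays, and MC5R, the melanocortin receptor of sebocytes, was above it on no array. The log2 summed level of the 3 markers with a value on every array (MC5R, PLIN2 and PPARG) was 3.06 to 3.74 in large wave and 3.17 to 4.24 in small wave lambs, and the groups overlapped. PLIN2 differed by -0.21 ± 0.43 (SE, limma adjusted p = 0.899) and by 0.053 after quantile normalization. FABP5 differed by -0.38 ± 0.34 with 2 small wave arrays, but by 0.37 with outlier-marked spots kept and by 0.73 in the authors' deposited table. Of 11 skeletal muscle markers, 3 could be named, with MB above background on no array. Their summed level was -1.22 to -0.52 in large wave and -1.44 to -0.99 in small wave lambs, overlapping. The sum mostly follows MYL11, the brightest, which differed by 0.74 (limma adjusted p = 0.777). TNNC2 differed by -1.35 (limma adjusted p = 0.777) and by -0.54 at its other probe, both dim and well above background on 5 arrays. At the first TNNC2 probe the groups did not overlap, as in 9.76% of the probes with 6 values. The part of gland content in the ACLY and SCD values was not tested.

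For each member, the named genes most like it were found by the Pearson r of the scaled values over the 6 arrays, among 304 genes with a value on each. These r values describe the same arrays, which share brightness and scaling, and carry no test. Among those for ACLY were PSMB8, a subunit of the immunoproteasome (0.97), SQSTM1, an autophagy receptor (0.95), BTG2, an antiproliferative gene (0.90), and TIMP3, a metalloproteinase inhibitor (0.88). PSMB8 read -4.70 and SQSTM1 -2.34 in small wave lamb 2, where ACLY was low, with -3.15 and -0.74 as the next lowest, each in small wave lamb 3. In small wave lamb 2 PSMB8 was dimmer than any signal well above background on that array, so its -4.70 is a value near the floor. The r of 0.97 for PSMB8 uses that value. Without small wave lamb 2, r was 0.95 for PSMB8, 0.86 for SQSTM1 and 0.83 for TIMP3, but 0.02 for BTG2.

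For SCD they were PSIP1, a chromatin-bound coactivator (0.97), LGALS1, the lectin galectin (0.96), DGAT1 (0.96), NR3C1, the glucocorticoid receptor (0.93), and ATP5MC1, a subunit of the mitochondrial ATP synthase (0.93, but 0.55 after quantile normalization). DGAT1 read -0.12, 0.30 and -0.22 in large wave lambs 1, 2 and 3 and 0.04, 0.35 and 0.50 in small wave lambs 1, 2 and 3, a smaller range than that of SCD, lowest in large wave lamb 3 and high in small wave lambs 2 and 3. These 5 genes, like SCD (r = -0.78), had lower scaled values on brighter arrays, with r from -0.86 to -0.67 against the log2 75th percentile.

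**Figure D5:**
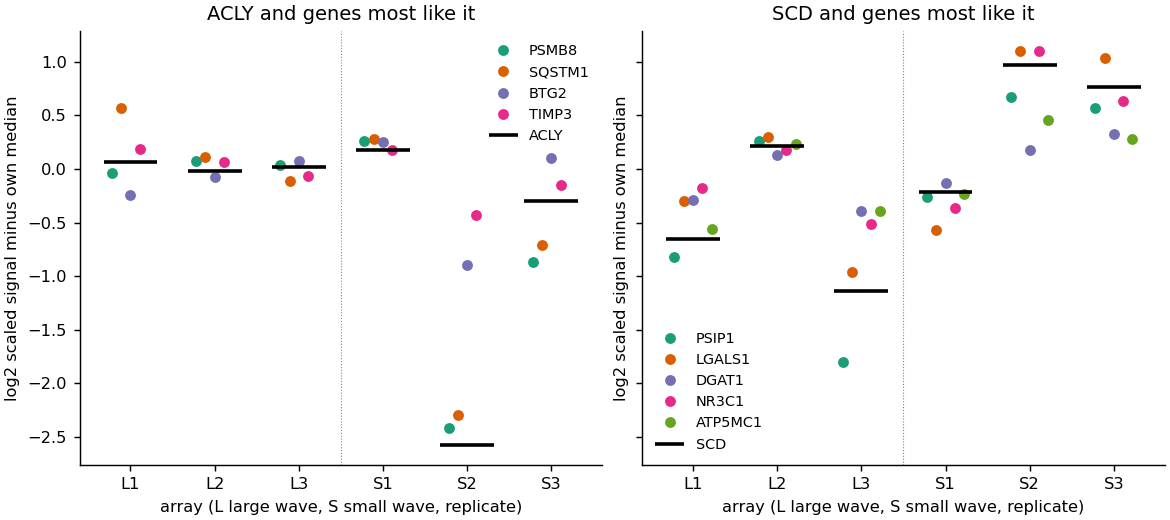
Log2 scaled signal minus the gene's own median over the 6 arrays for ACLY (left) and SCD (right), as black bars, and named genes most like each (coloured points), by array (L large wave, S small wave, with the replicate number). ACLY, PSMB8 and SQSTM1 are low in small wave lamb 2, and SCD and its like genes are high in small wave lambs 2 and 3.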

How the data were processed

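The members and gene lists were chosen with earlier results of these data known. Per the file headers, the authors extracted the spot intensity values with Feature Extraction 10.7.3.1 from Agilent. Its processed signal is background-subtracted but unscaled across arrays. A table of log2 values deposited by the authors, of unstated normalization, correlated with quantile-normalised processed signals at r of at least 0.99999 on each array, across probes, and served as an alternative.

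The log2 processed signal was taken minus the 75th percentile of each array, outlier-marked spots were left out, spots of a probe were averaged, and 10048 probes well above background on at least 3 of 6 arrays were kept. Of these, 7 had no value in a group or no residual degree of freedom, leaving 10041. Large wave minus small wave was fitted with limma 3.58.1 in R 4.3.3 (eBayes with variance trend, Benjamini-Hochberg adjustment, threshold 0.05), and tested on simulated data. RefSeq accessions were matched to the table of assembly ARS-UI_Ramb_v3.0, where 767 of 786 probes matched, giving 500 genes. A gene with several probes was represented by the brightest tested one. All ACLY and SCD probes, all tested list genes and the 5 genes most like each member were named, except for items not reported here. The number of arrays limits the precision: a probe's 95% confidence interval reached a median of 1.06 to either side.

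As a check of pairing, the deviations of lambs 1, 2 and 3 from their group means were set against each other over 9220 probes, and r was 0.30, 0.18 and 0.20, each above the limit of 0.1. The labels do not tie the number to the shared dam. The numbers follow the columns of the slide, so dam and column cannot be told apart. No r between lambs of unlike number was computed. Lambs numbered 1 also had the brightest array of their group, and the part of brightness in these r values was not tested.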

Additional observations from a re-analysis of the deposited data

How the results depend on the processing

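No probe and no gene of the lipid synthesis lists passed the adjusted threshold of 0.05 under the reported fit or any of 18 alternative fits (count 0 in each, lowest adjusted p 0.175 with limma array weights), while 383 probes had an unadjusted p under 0.05 in the reported limma fit and 2171 with array weights. The fits without scaling and all settings for the SD were chosen after seeing the data. ACLY ranged from -0.18 within row 1 of the slide, its only change of sign, to 2.06 with array weights; leaving out 1 array gave 0.08 to 1.46. SCD was below 0 in 20 of 20 alternatives, from -1.52 to -0.24, the latter within row 1 of the slide; leaving out 1 array gave -1.40 to -0.73. With the replicate block, SCD had the same difference, -1.03, with an unadjusted p of 0.042 (adjusted p = 0.624), and ACLY 0.92 (adjusted p = 0.627); the block changed no call. The SD over arrays was 0.18 to 1.52 for ACLY and 0.52 to 0.91 for SCD. Without the filter on dim probes the median difference over all probes was -0.21.

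Without scaling the median difference over all probes was 0.74, and SCD5 had 0.60, DGAT1 0.45, PPARG 0.37, SQLE 0.53 and PLIN2 0.55, each above 0 but below that median, so this change of sign follows from the shift of all probes. Signs also turned as follows; the cause was not tested. With array brightness as a covariate, ME1 had -0.57 and SCD5 0.40. After normexp correction with quantile normalization, IDH1 had 0.062 and SQLE 0.19. After quantile normalization, SQLE had 0.10 and PLIN2 0.053; in the authors' deposited table they had 0.11 and 0.055, and FABP5 0.73. With outlier-marked spots kept, FABP5 had 0.37. With array weights, PLIN2 had 0.30. Leaving out 1 array gave -0.071 to 1.18 for ME1 (the lowest without small wave lamb 3), -0.52 to 0.24 for SCD5 (0.024 without small wave lamb 3 and 0.24 without large wave lamb 1) and -0.53 to 0.17 for PLIN2 (0.075 without large wave lamb 2 and 0.17 without small wave lamb 1). The planned comparison with other probes of ACLY and SCD was not run, since each has 1 named probe.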
